A study of Mus musculus with 4 samples.

Results

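Consensus peaks of ATAC-seq that spanned 1500 bp or more are described here. They were taken from the authors' deposited table of consensus peaks by the deposited width alone, and 1796 of 85925 peaks (2.09%) qualified, with a median width of 1709.5 bp and a range of 1500 to 4067 bp. In ATAC-seq a transposase inserts adapters into accessible DNA, so a peak marks a stretch of open chromatin. The cells were periosteal stem/progenitor cells, released by enzyme digestion from the mandibular angle at 8 weeks of age, cultured, and induced towards bone for 3 days (ascorbic acid, dexamethasone, β-glycerophosphate). The 2 Plagl1ko libraries carried Ctsk-iCre, a Cre recombinase driven by the cathepsin K gene, together with the floxed allele (Ctsk-iCre;Plagl1fl/fl), and the 2 control libraries carried the same floxed allele without Cre (Plagl1fl/fl). Plagl1 encodes a zinc finger transcription factor. Because Cre was present in Plagl1ko libraries alone, its own effect and that of the deletion cannot be told apart. Nothing in the labels ties libraries to separate mice, so the p-values may measure only the spread between these libraries, which may be technical. The deposited table gives 1 fold, 1 mean signal and 1 test per peak. Values per library are not analysed here, and the depth of each library is unknown. A positive log2 fold is read as higher in Plagl1ko, which the header does not state, and all directions below would turn round if the ratio ran the other way.

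In mammalian genomes the widest open regions usually lie at promoters rich in CpG dinucleotides and at dense groups of enhancers near genes that a cell type uses strongly. Such regions hold binding sites for many factors at once, and the chromatin of CpG-rich promoters tends to be open in most cell types.

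Promoter windows show how the start sites under gained and lost wide peaks differed in base composition. The windows are RefSeq sequences of build GRCm38.p6, running from 250 bases before to 50 bases after a gene's start, written 5′ to 3′ on the gene's strand, with each CG dinucleotide in capitals. The 3 shown first belong to the genes with the largest gains among start-site peaks whose gene has a single window, and the next 3 to those with the largest losses. 
Ankrd33b, chr15:31367710-31368009, minus strand: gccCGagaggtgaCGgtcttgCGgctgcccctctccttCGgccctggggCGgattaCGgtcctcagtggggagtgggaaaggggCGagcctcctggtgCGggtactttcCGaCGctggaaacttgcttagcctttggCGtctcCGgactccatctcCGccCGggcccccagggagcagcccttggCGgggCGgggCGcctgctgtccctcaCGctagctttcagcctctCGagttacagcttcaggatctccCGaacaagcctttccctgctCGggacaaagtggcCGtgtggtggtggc
Gpnmb, chr6:49036268-49036567, plus strand: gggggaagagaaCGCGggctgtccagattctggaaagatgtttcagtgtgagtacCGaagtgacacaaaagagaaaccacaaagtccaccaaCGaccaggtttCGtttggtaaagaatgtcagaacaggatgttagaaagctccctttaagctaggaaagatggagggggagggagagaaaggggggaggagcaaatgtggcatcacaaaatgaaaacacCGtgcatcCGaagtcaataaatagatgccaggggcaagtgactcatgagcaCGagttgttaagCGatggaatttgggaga
Orai2, chr5:136170607-136170906, minus strand: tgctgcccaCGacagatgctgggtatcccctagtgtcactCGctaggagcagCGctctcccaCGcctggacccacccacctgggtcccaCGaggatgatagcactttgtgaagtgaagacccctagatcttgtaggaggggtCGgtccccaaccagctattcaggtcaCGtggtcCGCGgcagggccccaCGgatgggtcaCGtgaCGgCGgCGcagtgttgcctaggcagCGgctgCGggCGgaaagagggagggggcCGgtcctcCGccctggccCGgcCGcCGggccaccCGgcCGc
Zdhhc8, chr16:18235087-18235386, minus strand: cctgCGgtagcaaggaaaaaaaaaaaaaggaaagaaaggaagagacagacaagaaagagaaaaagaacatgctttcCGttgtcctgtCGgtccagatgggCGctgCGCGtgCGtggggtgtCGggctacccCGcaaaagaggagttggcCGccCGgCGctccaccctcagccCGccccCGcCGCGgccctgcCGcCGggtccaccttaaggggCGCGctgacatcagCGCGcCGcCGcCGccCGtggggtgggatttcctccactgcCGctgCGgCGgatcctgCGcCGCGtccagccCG
Ebf3, chr7:137314396-137314695, minus strand: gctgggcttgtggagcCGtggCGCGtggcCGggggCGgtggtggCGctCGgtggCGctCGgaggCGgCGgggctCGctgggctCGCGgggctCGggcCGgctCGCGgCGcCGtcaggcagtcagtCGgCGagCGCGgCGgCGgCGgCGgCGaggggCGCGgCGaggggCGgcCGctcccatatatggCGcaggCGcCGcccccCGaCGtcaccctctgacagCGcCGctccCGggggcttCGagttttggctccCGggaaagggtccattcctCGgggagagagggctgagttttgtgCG
Tcf7l1, chr6:72788996-72789295, minus strand: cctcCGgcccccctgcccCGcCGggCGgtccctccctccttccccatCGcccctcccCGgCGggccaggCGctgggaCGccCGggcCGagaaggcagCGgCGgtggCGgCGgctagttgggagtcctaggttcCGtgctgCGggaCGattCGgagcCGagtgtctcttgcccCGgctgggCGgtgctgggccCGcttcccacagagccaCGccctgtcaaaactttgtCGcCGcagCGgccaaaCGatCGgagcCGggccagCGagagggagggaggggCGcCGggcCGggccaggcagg
The windows of the 3 gained genes held 22 CG dinucleotides (Ankrd33b), 9 (Gpnmb) and 24 (Orai2). Those of the 3 lost genes held 33 (Zdhhc8), 46 (Ebf3) and 34 (Tcf7l1).

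Wide peaks were strong as well as long. Their median signal was 5.63 log2 CPM per the authors' deposited table, against 4.83 for peaks of 1000 to under 1500 bp and 2.27 for peaks under 1000 bp. Per kilobase the medians were 27.8 CPM for wide peaks, 24.1 for peaks of 1000 to under 1500 bp and 12.03 for narrower ones. Wide peaks took 6.76% of the peak sequence and 10.4% of the summed CPM in the authors' deposited table of peaks. A single peak over the ribosomal RNA gene Rn18s supplied 5.00% of the wide peaks' CPM, and without it the wide share of CPM was 9.91%. The standard error of each log2 fold, implied by the deposited fold and p, had a median of 0.0630 in wide peaks, against 0.0824 at 1000 to under 1500 bp and 0.201 under 1000 bp. These standard errors followed mean signal almost alone: in 1744 of 1796 wide peaks the value lay within 5% of the median of the 501 peaks nearest in signal. A peak's own spread between libraries therefore barely entered the deposited test, which limits every call below.

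In Plagl1ko cells more wide peaks were lost than gained by the deposited test, a balance that turned round once the trend along signal was subtracted (61 gained, 32 lost). At an FDR under 0.05 by the authors' deposited edgeR test, 37 wide peaks were gained and 117 were lost. These were 2.06% and 6.51% of the wide peaks, beside 3.14% gained and 2.48% lost among all consensus peaks. Together 154 wide peaks were called (8.57%, beside 5.62% of all peaks), and 439 had an unadjusted p under 0.05 (24.4%, beside 19.8%). The gained share of the called wide peaks was 24.0% (95% interval by the exact Clopper-Pearson method, covering counting error only, 17.5 to 31.6%), against 34.0% at 1000 to under 1500 bp and 60.3% under 1000 bp. The median log2 fold of called wide peaks was 0.28 for gained ones (1.22-fold) and -0.22 for lost ones (0.856-fold) by the authors' deposited table. No wide peak reached an absolute log2 fold of 1, and 5 reached 0.5. The median over all wide peaks was -0.05, against 0.0024 over all peaks, and 70.1% of wide peaks lay below 0 per the authors' deposited table, against 49.6% of all peaks.

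**Figure D1:**
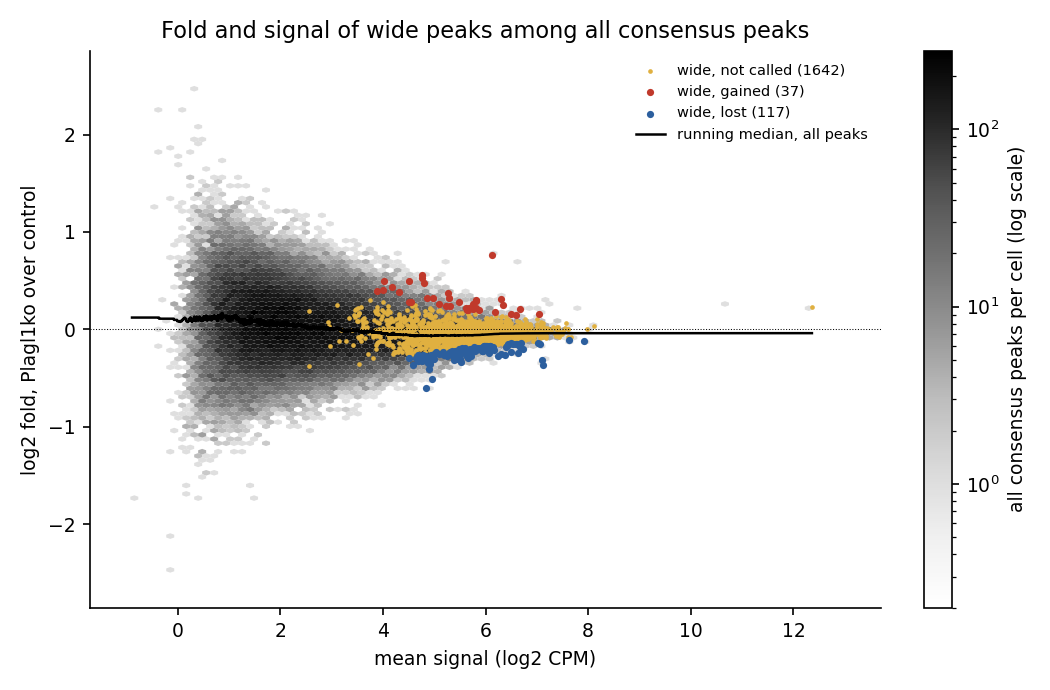
Log2 fold (Plagl1ko over control) against mean log2 CPM. Grey cells count all consensus peaks on a log scale, coloured points are wide peaks (37 gained in red, 117 lost in blue, 1642 not called in yellow), and the black line is the running median over 2000 peaks. The wide peaks sit in the strong part of the range, where the running median lies slightly below 0, and the isolated point at the far right is Rn18s.

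This split moved with signal. Over the range of wide peaks the running median of the fold along signal, taken over 2000 peaks of all widths, ran from -0.07 to 0.02. With it subtracted and the standard errors kept, 61 wide peaks were gained and 32 were lost, a gained share of 65.6%. All 37 gained peaks were among those 61, and 32 of the 117 lost peaks still passed. With an assumed coefficient of variation of 0.05 between libraries of a genotype added to the standard errors, 9 gained and 6 lost peaks were left of the 154. In the middle range of the wide peaks' signal (5.03 to 6.15 log2 CPM), wide and narrower peaks had similar shares. Of 898 wide peaks there, 17 were gained (1.89%) and 71 were lost (7.91%). Among the 5112 narrower peaks of that range, 114 were gained (2.23%) and 403 were lost (7.88%). The median log2 fold there was -0.06 in wide peaks and -0.06 in narrower ones in the authors' deposited table of peaks. The part of signal in the excess of losses was not tested beyond these values.

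**Figure D2:**
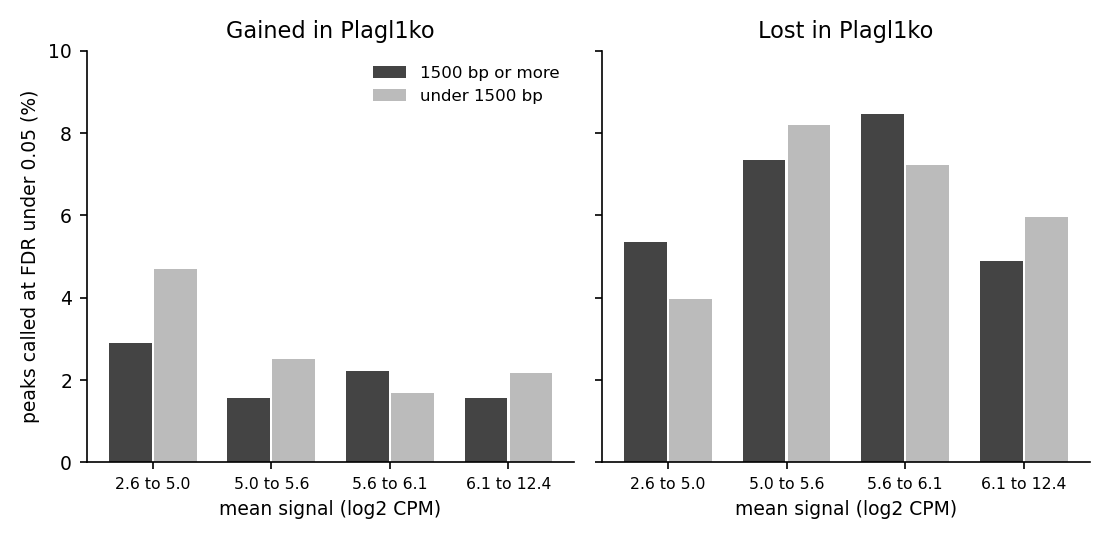
Share of peaks gained (left) and lost (right) at an FDR under 0.05, in 4 ranges of mean log2 CPM that each hold an equal number of wide peaks. Dark bars are peaks of 1500 bp or more (449 in each range) and light bars are narrower peaks. In the range from 5.6 to 6.1, 8.46% of wide and 7.23% of narrower peaks were lost, and in the strongest range 4.90% and 5.96%. The weakest range had 5.35% and 3.97% lost, and 2.90% and 4.69% gained. Median signal in that range was 4.58 log2 CPM for wide and 3.47 for narrower peaks.

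Within the wide class the calls did not follow width in order. Of 1030 peaks of 1500 to 1749 bp, 81 were called (7.86%). Of 444 peaks of 1750 to 1999 bp, 49 were called (11.0%). Of 268 peaks of 2000 to 2499 bp, 18 were called (6.72%), and of 54 wider peaks 6 were called (11.1%). Lost peaks outnumbered gained ones in each of these bands, with 19 gained and 62 lost, 13 and 36, 3 and 15, and 2 and 4 from the narrowest band to the widest. The high signal also narrowed the changes that went uncalled. Of the 1642 wide peaks not called, 864 (52.6%) had a 95% interval wholly within 0.2 of 0 on the log2 scale, against 4.85% of the uncalled narrower peaks.

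Gene names exist only for peaks with an unadjusted p under 0.05 and a log2 fold 0.2 or more away from 0, which the deposited annotation matched without exception. They therefore cover 161 wide peaks, of which 31 were gained, 81 were lost and 49 did not pass the FDR. The other 42 called wide peaks (6 gained and 36 lost) had absolute log2 folds of 0.11 to 0.20 and no assigned gene. No wide peak was assigned to Plagl1, Klf4 or Irx5, the genes of the series title, or to Ctsk.

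Among the 10 largest gains with a gene were peaks at Sfi1, Nfkbie, Lcp1 and Dock10. Tnfaip3, Ncf1 and the genes outside the 10 largest and the gene lists are given so that all 31 gained peaks with a gene are accounted for, and their grouping was made after their values were seen. The gained peak with the largest fold lay in intron 6 of 28 of Sfi1, a centrin-binding protein gene (chromosome 11, 3134256 to 3136071, mm39), at a log2 fold change of 0.77 (implied SE 0.145, edgeR FDR 6.20e-05, by the authors' deposited table). Its SE taken from p was 2.71 times the median of peaks of like signal, a distance shared among wide peaks only by Rn18s (2.54 times). At these 2 peaks the F score implied a smaller SE than p did, so both ratios depend on the conversion from p. Nfkbie, which encodes an inhibitor that holds NF-kappaB in the cytoplasm, gained a peak in intron 1 of 5, 1633 bp past its start site (chromosome 17, 45867373 to 45869145). Its log2 fold was 0.53 (implied SE 0.0843, edgeR FDR 6.29e-07, by the authors' deposited table). Another regulator of the same pathway, Tnfaip3, which encodes the deubiquitinase A20, gained a peak in intron 2 of 8 with a log2 fold of 0.22 by the authors' deposited table. Lcp1, the gene of the leukocyte actin-bundling protein L-plastin, gained its start-site peak (chromosome 14, 75367738 to 75369244), which also covers the promoter of Lrrc63. The Lcp1 peak had a log2 fold of 0.50 (implied SE 0.108, edgeR FDR 0.000778, by the authors' deposited table). Dock10, which encodes a guanine nucleotide exchange factor, gained a peak over its start site (chromosome 1, 80734624 to 80736489) at a log2 fold change of 0.49 (implied SE 0.0912, edgeR FDR 4.28e-05, by the authors' deposited table). Ncf1, a subunit of the phagocyte NADPH oxidase, gained a peak 2842 bp upstream with a log2 fold of 0.37 (FDR 8.08e-05) per the authors' deposited table.

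Further gains among the 10 largest lay mostly away from start sites. A peak 7544 bp upstream of Gm19345 had a log2 fold of 0.56 (implied SE 0.0843, edgeR FDR 1.34e-07, by the authors' deposited table). A peak on chromosome Y, assigned to Erdr1x and lying in a satellite repeat, had 0.48 (implied SE 0.0826, edgeR FDR 7.81e-06, by the authors' deposited table). The intergenic peak 27867 bp from 1700041C23Rik had 0.44 (implied SE 0.102) by the authors' deposited table. Utp14b, a ribosome biogenesis gene, was assigned a peak in intron 13 of 15 of Acsl3, inside an ERVL repeat, with 0.40 (implied SE 0.109) by the authors' deposited table. Clk1, a kinase gene of splicing control, had a gained intergenic peak at 14031 bp with 0.39 (implied SE 0.113) by the authors' deposited table. Ankrd33b gained its start-site peak at a log2 fold change of 0.39 (implied SE 0.0975, edgeR FDR 0.00518, by the authors' deposited table). None of these peaks but that of Ankrd33b lay within 1 kb of its gene's start site.

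The other gained wide peaks had smaller folds. Gpnmb, a glycoprotein gene active in macrophages and bone cells, gained its start-site peak (0.32), as did Tifa (0.32), an adaptor of innate immune signalling, and Orai2 (0.31), a calcium channel subunit, in the authors' deposited table of peaks. Klf3, a zinc finger repressor of the family of Klf4, had a gained peak in intron 1 of 6 (log2 fold 0.32, implied SE 0.0811, edgeR FDR 0.00543, by the authors' deposited table). A peak 59238 bp from Fos, the AP-1 subunit gene, had a log2 fold of 0.30 (implied SE 0.0588, edgeR FDR 0.000111, by the authors' deposited table). Hdac4, which restrains chondrocyte maturation, had a gained peak 35742 bp upstream with 0.29, and Il10rb, a shared cytokine receptor chain, one near its start with 0.22, by the authors' deposited table. Actb had a gained peak at its transcript end (0.26) and Hspa8 one 19590 bp upstream inside an intron of Clmp (0.29) per the authors' deposited table. The remaining gained peaks with a gene were those of Kcnk13, Zfp462, A630001O12Rik, Mllt6, Lrrc8d, Sgms1, St3gal1, Tor1b, Mir29b-1 and Fam133b, with log2 folds of 0.20 to 0.28 in the authors' deposited table of peaks.

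Markers of leukocytes and osteoclasts were read over peaks of all widths. None of 22 macrophage and leukocyte markers and none of 15 osteoclast markers had a wide peak that could be tied to the gene. Most wide peaks had no assigned gene, so further ones may exist. In narrower peaks, 15 of the 18 macrophage and leukocyte markers with an assigned peak had a gained one and 1 had a lost one. Of their 40 assigned peaks 23 were gained and 1 was lost by the authors' deposited table. For osteoclast markers 8 of 13 such genes had a gained peak and 1 a lost one, with 10 of 29 peaks gained and 1 lost. Among all 15216 peaks with an assigned gene, 2674 were gained and 1988 were lost, and the difference of the lists from them was not tested. No wide peak was assigned to a marker of endothelium, skeletal muscle, Schwann cells or epithelium either. Levels per library, and so the share of leukocytes in each culture, are not analysed here, and their part in the gains at Lcp1, Ncf1, Nfkbie or other wide peaks was not tested. In such bulk libraries fewer cells of a type and lower accessibility per cell cannot be told apart.

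Of the 81 lost wide peaks with a gene, 53 covered its start site, beside 91 of all 161 wide peaks with a gene. Among the 53 were those of the factor genes Barx1, Twist1 and Ebf3. Hmox1, which encodes heme oxygenase 1, lost a peak at its transcript end, 7259 bp past the start site (chromosome 8, 75826374 to 75828637). Its log2 fold of -0.51 (0.704-fold, implied SE 0.0811, edgeR FDR 8.36e-07) was the second largest loss per the authors' deposited table. Tpbg, a surface glycoprotein gene, lost the 2140 bp peak over its start site (chromosome 9, 85723956 to 85726094), at a log2 fold change of -0.40 (implied SE 0.0822, edgeR FDR 0.000254, by the authors' deposited table). Barx1, a homeobox gene of jaw and tooth mesenchyme, lost its start-site peak (chromosome 13, 48815829 to 48817525), at a log2 fold change of -0.33 (implied SE 0.0857, edgeR FDR 0.00717, by the authors' deposited table). Twist1, a bHLH factor gene of cranial mesenchyme, lost its promoter peak (chromosome 12, 34006805 to 34008579), at a log2 fold change of -0.30 (implied SE 0.0677, edgeR FDR 0.00128, by the authors' deposited table). A further wide peak 9373 bp past the Twist1 start site had a log2 fold of -0.29 but an FDR of 0.126 in the authors' deposited table of peaks, at a signal of 3.81 log2 CPM. Ebf3, a factor gene of marrow stromal cells, lost a peak over exon 1 of 16, at a log2 fold change of -0.34 (implied SE 0.0822, edgeR FDR 0.00321, by the authors' deposited table).

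In the list of 26 WNT genes, 3 had wide peaks that could be tied to the gene, of which 0 were gained and 2 were lost. Only the 2 lost ones were among the 161 wide peaks with an assigned gene, of which 31 were gained and 81 were lost. Tcf7l1, an HMG box factor that binds beta-catenin, lost the peak over exon 1 of 13 (chromosome 6, 72765146 to 72766683), at a log2 fold change of -0.33 (implied SE 0.0663, edgeR FDR 0.000188, by the authors' deposited table). Fzd8, a Frizzled receptor gene, lost the 2338 bp peak over its start site at a log2 fold change of -0.20 (implied SE 0.0606, edgeR FDR 0.0262, by the authors' deposited table). The remaining gene of the WNT list, Fzd1, had a start-site peak that did not pass, with a log2 fold of -0.13 (FDR 0.175) by the authors' deposited table. Of the growth factor receptors, Fgfr2 lost a peak in intron 1 of 15 (log2 fold -0.31, implied SE 0.0864, edgeR FDR 0.0146, by the authors' deposited table). Igf1r lost its promoter peak (log2 fold -0.20, implied SE 0.0556, edgeR FDR 0.0134, by the authors' deposited table). With the trend along signal subtracted, the adjusted p was 0.176 for Fzd8, 0.0750 for Fgfr2 and 0.105 for Igf1r, and 0.00409 for Tcf7l1. The other wide peaks of the FGF and IGF list lay at the start sites of Fgf10, Spred1 and Spry4, with log2 folds of 0.08, 0.02 and 0.01 and no call per the authors' deposited table.

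Egr1, an immediate early zinc finger factor gene, held a pair of wide peaks, of which 1 was called. The 2477 bp peak at its transcript end, 3974 bp past the start site, was lost at a log2 fold change of -0.31 (implied SE 0.0399, edgeR FDR 7.82e-11, by the authors' deposited table). The 1569 bp peak over its start site had a log2 fold of -0.05 (SE 0.0392, FDR 0.553) at nearly the same signal (7.08 against 7.10 log2 CPM) in the authors' deposited table of peaks. The difference between these peaks was not tested, since both come from the same libraries. Lox, the collagen and elastin cross-linking enzyme gene, lost its promoter peak (log2 fold -0.22, FDR 0.00767) by the authors' deposited table, with an adjusted p of 0.0735 once the trend was subtracted. Errfi1, a feedback inhibitor of EGF receptor signalling that responds to glucocorticoids, lost a peak at 16655 bp (log2 fold -0.28, FDR 0.00163) per the authors' deposited table. Large losses farther from start sites were assigned to Plpp3, a lipid phosphate phosphatase gene (-0.35, at 76644 bp), and to Gnl3l, a nucleolar GTPase gene (-0.37, at 60980 bp), in the authors' deposited table of peaks. Zdhhc8, a palmitoyltransferase gene, lost its promoter peak at a log2 fold change of -0.36 (implied SE 0.0816, edgeR FDR 0.00156, by the authors' deposited table). The loss with the smallest p was assigned to Tmem254, 8990 bp from its start (log2 fold -0.37, implied SE 0.040, edgeR FDR 1.14e-15, by the authors' deposited table).

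Several named loci have near-identical copies, between which reads cannot always be placed. RefSeq lists Tmem254a, Tmem254b and Tmem254c in the mouse, and Rn18s repeats across the ribosomal DNA. On chromosome Y, where 2 of 13 consensus peaks were wide, the peak assigned to the RNA gene G530011O06Rik was lost (log2 fold -0.60, implied SE 0.0854, edgeR FDR 1.67e-08, by the authors' deposited table). The other wide peak of that chromosome, assigned to Erdr1x, was the gained one described above. The values at these loci are uncertain for that reason. Narrower peaks of chromosome Y near the wide ones had log2 folds of -0.84 to 0.63. Those far from them, between positions 1010039 and 1286731, had -0.41 to -0.66, and none of these was called. The reason was not tested. With the sex chromosomes left out, 36 wide peaks were gained and 116 were lost.

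**Figure D3:**
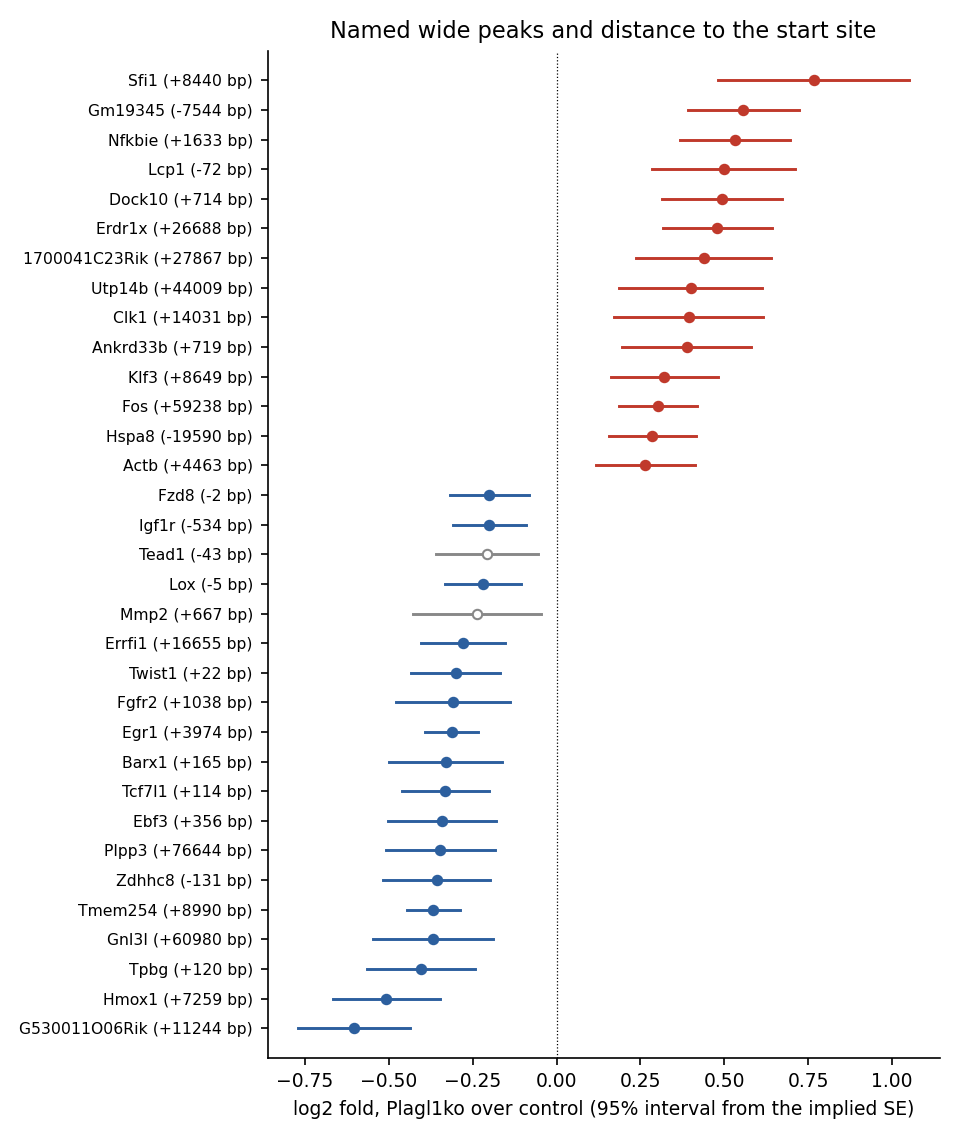
Log2 fold (Plagl1ko over control) of wide peaks with the largest gains and losses or in a gene list, with 95% intervals from the implied standard error. Labels give the assigned gene and the signed distance from its start site to the peak centre. Red is gained, blue is lost, and open grey circles (Tead1, Mmp2) did not pass an FDR of 0.05.

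Further lost start-site peaks are given here as examples, chosen and grouped after their values were seen, and no class of genes was counted or tested. Transcription factor genes among them were Tbx3 (-0.23), Tbx18 (-0.25), Tshz3 (-0.24), Atf1 (-0.24), Nr2f6 (-0.22) and Tead3 (-0.20), as log2 folds by the authors' deposited table. Chromatin proteins included Smarcc2 (-0.25), a subunit of the SWI/SNF remodeller, and Stag1 (-0.24), a subunit of cohesin, as log2 folds per the authors' deposited table. Genes of cell movement and contractility included Rock2 (-0.25), Cttn (-0.28), Kif2a (-0.25) and Cnn3 (-0.21), as log2 folds in the authors' deposited table of peaks. The planar polarity gene Prickle1 (-0.30), the glypican gene Gpc6 (-0.27), the netrin receptor gene Neo1 (-0.26) and the chemokine gene Cxcl12 (-0.20) were also lost, as log2 folds by the authors' deposited table. With the trend along signal subtracted, Tbx3, Stag1, Rock2, Cttn, Prickle1 and Gpc6 still passed. Tbx18, Tshz3, Atf1, Nr2f6, Tead3, Smarcc2, Kif2a, Cnn3, Neo1 and Cxcl12 no longer did.

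Gene lists for this tissue touched few wide peaks, and those with an assigned gene had already passed an unadjusted p, so the counts below describe and do not test. They hold only wide peaks that could be tied to a gene, and most could not, so listed genes may have further ones. Over all wide peaks 2.06% were gained and 6.51% were lost, and of the 161 with an assigned gene 31 were gained and 81 were lost. The AP-1 and immediate early list held 4 wide peaks (1 gained, 1 lost), the KLF and Iroquois list 1 (Klf3, gained), the adipocyte list 1 (Ebf3, lost) and the housekeeping list 2, both at Hspa8 (1 gained). In the list of 39 craniofacial mesenchyme factors, 6 genes had 8 wide peaks, of which 3 were lost (Barx1, Tbx18 and Twist1) and none was gained. The 5 not called were a distal Twist1 peak and peaks at Zeb1 (-0.25 and -0.02), Prrx1 (-0.06) and Foxp1 (0.07), as log2 folds per the authors' deposited table. With the trend subtracted Barx1 and Twist1 still passed (adjusted p 0.0464 and 0.0179), and Tbx18 did not. Of 39 extracellular matrix genes, 4 had wide peaks, with 1 lost (Lox) and none gained. Mmp2, a gelatinase gene, had a start-site peak at -0.24 that did not pass (FDR 0.130), and the shared start of Col4a1 and Col4a2 lay at -0.08, in the authors' deposited table of peaks. Of 28 cytoskeleton genes and YAP targets, 3 had wide peaks, with Actb gained, Tead1 at -0.21 (FDR 0.0852) and Tns1 at 0.04 by the authors' deposited table. In the TGF-beta and BMP list the only wide peak lay at the start of Bmpr1a (-0.16, FDR 0.258), and in the chondrocyte list at that of Trps1 (0.20, FDR 0.107), per the authors' deposited table. In the glucocorticoid list Errfi1 was lost, while Nr3c1, the receptor gene, lay at -0.08 and Per2 at 0.04 without a call, in the authors' deposited table of peaks. None of 25 osteoblast genes had a wide peak that could be assigned, although 16 of them had an assigned peak of some width.

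Gained and lost wide peaks differed in position. Of the 31 gained peaks with a gene, 9 (29.0%, Clopper-Pearson interval 14.2 to 48.0%) had their centre within 1 kb of the start site, and of the 81 lost ones 53 (65.4%, 54.0 to 75.7%). Of all 161 wide peaks with a gene, 91 did (56.5%, 48.5 to 64.3%). Those 161 include the called peaks and hold 120 peaks with negative folds and 41 with positive ones. Their share therefore leans towards that of the lost peaks. The median distance was 8440 bp for gained and 432 bp for lost wide peaks. Among gained peaks 14 lay in introns, 9 between genes and 5 in repeats, against 14, 21 and 1 among the 81 lost ones. Among all 161 wide peaks with a gene these numbers were 44, 41 and 7. The deposited detail named a CpG island at 1 gained (3.23%) and 13 lost wide peaks (16.0%), beside 20 of all 161 (12.4%). Narrower peaks leaned the same way with lower shares: at 1000 to under 1500 bp, 26 of 197 gained (13.2%) and 150 of 327 lost peaks (45.9%) lay within 1 kb. Over annotated peaks of all widths these shares were 6.58% of 2674 gained and 20.1% of 1988 lost peaks. With the trend along signal subtracted, 12 of 36 gained and 21 of 31 lost wide peaks with a gene covered their own start site.

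**Figure D4:**
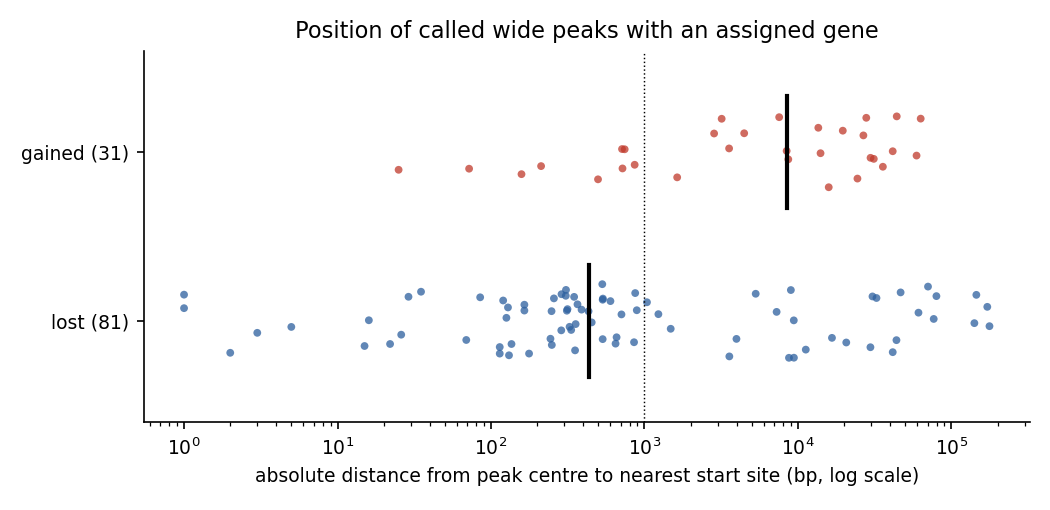
Absolute distance from the centre of each called wide peak with a gene to the nearest start site, on a log axis in bp. Points are peaks (31 gained in red above, 81 lost in blue below), spread vertically at random, black bars are medians (8440 bp for gained, 432 bp for lost), and the dotted line marks 1 kb.

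Start sites could also be placed for peaks without a gene, by solving their positions from the deposited distances of at least 2 annotated peaks. This located 3275 of 9042 start sites. Of the wide peaks 323 (18.0%) covered a located or assigned start site, against 13.3% at 1000 to under 1500 bp and 2.08% under 1000 bp. These shares are low estimates, because most start sites could not be placed, and placing them depended on annotated peaks nearby. Wide start-site peaks without a call included those of Gli2 (log2 fold 0.02) and Gli3 (-0.10), effectors of Hedgehog signalling named after their values were seen, by the authors' deposited table.

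Promoters under lost wide peaks were richer in GC and CpG than promoters under gained ones. A window could be matched to 7 of 9 gained and 46 of 57 lost start-site peaks, and to 240 wide start-site peaks in all. Where a gene has several windows their mean was used. The median GC content was 56.8% in the 7 gained windows (47.7 to 68.0%), against 73.0% in the 46 lost ones (51.7 to 84.7%). It was 67.3% in the 187 windows of peaks not called and 52.8% over all 27025 genes with a window. The median number of CG dinucleotides per 300-base window was 15.0 for gained, 33.5 for lost and 28.0 for uncalled peaks, against 7.00 over all genes. With a single window per gene required, the median GC content was 59.3% in 4 gained and 76.0% in 33 lost genes. With the trend along signal subtracted it was 56.8% in 9 gained and 70.3% in 16 lost windows. Narrower start-site peaks leaned the same way. Their median GC content was 54.0% in 96 gained, 64.0% in 274 lost and 61.3% in 1592 uncalled peaks. The median numbers of CG dinucleotides were 6, 23.25 and 20.

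**Figure D5:**
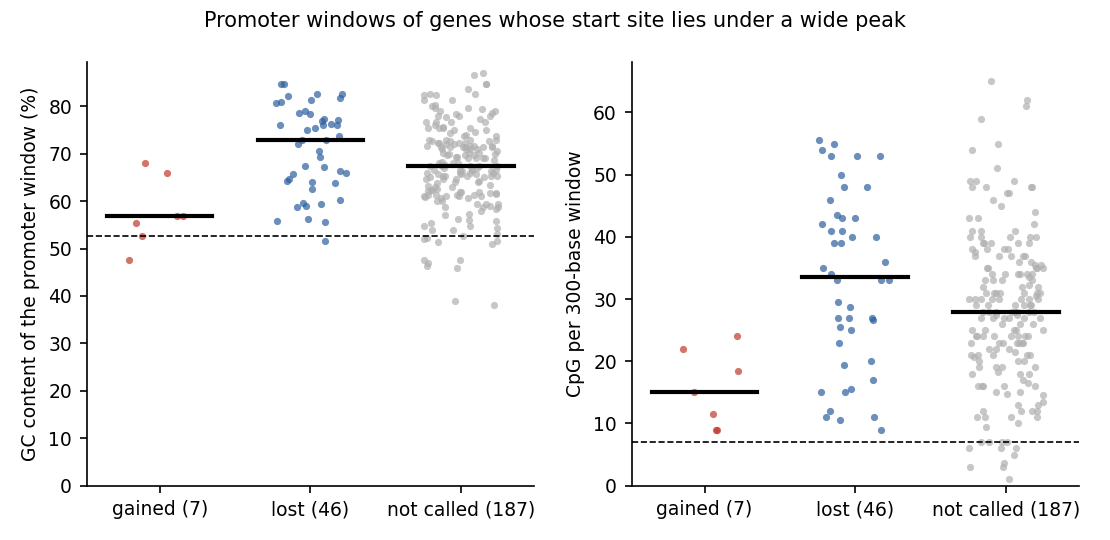
GC content in percent (left) and CG dinucleotides per 300-base window (right) for promoters under wide peaks that were gained (7), lost (46) or not called (187). Points are genes, bars are medians, and the dashed line is the median of all 27025 genes with a window (52.8% GC and 7.00 CG). Lost promoters have medians of 73.0% GC and 33.5 CG, above those of gained promoters at 56.8% and 15.0.

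Across the 240 wide start-site peaks the fold was weakly related to promoter GC and did not fall evenly with it. Over promoters above 70% GC, 0 of 99 peaks were gained and 26 lost, and the median log2 fold was -0.11. Between 60 and 70% GC, 2 of 93 were gained and 12 lost, and the median was -0.06. Between 50 and 60% GC, 4 of 40 were gained and 8 lost, with a median of -0.09. At 50% GC or below, 1 of 8 was gained and 0 lost. Spearman's rank correlation between GC content and log2 fold was -0.20 over the 240 peaks, and -0.16 over 1962 narrower start-site peaks. It is given as a description, since all peaks come from the same 4 libraries. The part of base composition in the losses was not tested.

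Short motifs were counted in the same windows, with 1 answer per gene whatever its number of windows, so the counts below are of genes. The GC box (GGGCGG, both strands searched, which itself contains a CG) was present in 4 of 7 gained and 40 of 46 lost windows (87.0%), against 152 of 187 uncalled wide start-site windows (81.3%) and 38.2% of all genes. The AP-1 site (TGANTCA, both strands) was present in 1 of 7 gained windows, that of Gpnmb, and in 3 of 46 lost ones, against 8 of 187 uncalled ones and 8.97% of all genes. The TATA box (TATAAA) was present in 1 of 7 gained and 6 of 46 lost windows, against 13 of 187 uncalled ones and 15.7% of all genes. The CCAAT box (CCAAT) was present in 1 of 7 gained and 13 of 46 lost windows, against 58 of 187 uncalled ones (31.0%) and 41.1% of all genes. An ETS core (GGAAGT) was present in 2 of 7 gained and 9 of 46 lost windows, against 40 of 187 uncalled ones (21.4%) and 26.5% of all genes. With a single window per gene required, the GC box was present in 2 of 4 gained, 27 of 33 lost (81.8%) and 125 of 156 uncalled genes (80.1%). The AP-1 site was then present in 1 of 4 gained, 0 of 33 lost and 8 of 156 uncalled genes. Each motif is a match of letters in a window of 300 bases and not a measured site.

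The nearest consensus peak was also read for each wide peak. The gap to the nearest consensus peak had a median of 6112.5 bp for wide and 5062 bp for narrower peaks. Within 10 kb of the 37 gained wide peaks, 35 had a neighbour, whose log2 fold had the same sign in 26 cases (74.3%), with a median of 0.14, and 3 neighbours (8.57%) were gained. For the 117 lost wide peaks 90 had such a neighbour, with the same sign in 48 cases (53.3%), a median of -0.05, and 5 neighbours (5.56%) were lost. Over all consensus peaks with a neighbour within 10 kb the same-sign share was 55.4%, and 3.70% of neighbours were gained and 2.39% lost. Some wide peaks lay in groups: 172 of them formed 82 clusters with gaps of at most 25 kb. In the Nfkbie group the 3 wide peaks ranged from -0.01 to 0.53, and in the Hspa8 group from -0.01 to 0.29, as log2 folds per the authors' deposited table. No cluster held both a gained and a lost wide peak, and 2 held a pair of lost ones, both on chromosome 11. With 2.06% of wide peaks gained and 6.51% lost, few clusters could hold more than 1 call. These counts therefore say little about a shared direction.

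By chromosome the losses were most numerous on chromosomes 11 (17 of 155 wide peaks) and 7 (13 of 116), beside 117 of all 1796. Chromosome 11 also held the most wide peaks. Gains exceeded losses on chromosome 5, with 7 gained and 3 lost of 107 wide peaks, and on chromosome 1, with 5 gained and 3 lost of 105. Over peaks of all widths gains exceeded losses there too, as on most chromosomes (149 against 134 on chromosome 5, 180 against 114 on chromosome 1). The median log2 fold of wide peaks was below 0 on every chromosome that had any, from -0.08 on chromosome 18 to -0.02 on chromosome 6, in the authors' deposited table of peaks.

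Of the 5 widest and 5 strongest peaks, 1 was called. The widest spanned 4067 bp (chromosome 7, 19035185 to 19039250) without an assigned gene, and was lost at a log2 fold change of -0.12 (implied SE 0.0306, edgeR FDR 0.00721, by the authors' deposited table). It no longer passed with the trend subtracted (-0.08, adjusted p 0.120). Rn18s, 3649 bp wide and by far the strongest at 12.4 log2 CPM, had a log2 fold of 0.23 (implied SE 0.102, edgeR FDR 0.174, by the authors' deposited table). The other 3 of the 5 widest had log2 folds of -0.14, -0.06 and 0.00 and did not pass by the authors' deposited table. Of the other strong peaks, that over the start of BC031361 had -0.08 (FDR 0.133), and those on chromosomes 15 and 9 without a gene had 0.04 and -0.00, per the authors' deposited table. At the edge of the class, the 3 narrowest members (1500, 1500 and 1501 bp) had log2 folds of 0.23, -0.02 and -0.15. The 3 nearest peaks outside it (each 1 bp narrower than the limit) had -0.24, 0.08 and -0.17, and none of the 6 passed the FDR, in the authors' deposited table of peaks.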

How the data were processed

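ATAC-seq libraries of 2 Plagl1ko and 2 control cultures were compared by the authors. Per the submitters' processing notes, which give no order, the tools were DiffBind 3.16.0, HOMER, GATK 4.5.5.0, Bowtie2 2.5.4, deepTools 3.5.5, SAMtools 1.21 and Trim Galore 0.6.10, on mm39. How peaks were called, read ends shifted and libraries scaled is not given in the sources used here. Per the file headers, the deposited table holds log2 fold changes, mean log2 CPM, an F score and p-values with their FDR. The name the authors gave that deposited table credits them to edgeR. The deposited FDR matched Benjamini-Hochberg values over all 85925 peaks to within 6.73e-06. The deposited width equals end minus start plus 2.

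Peaks of 1500 bp or more counted as gained or lost where the deposited FDR was below 0.05, whatever the fold. Standard errors were the size of the log2 fold divided by the normal deviate of the deposited p. Of 1796 wide peaks, 1794 had an F-based value within 5% of this. The other 2, Sfi1 and Rn18s, had smaller F-based values. Start sites were solved from deposited distances, and RefSeq tables of GRCm38.p6 gave names and promoter windows (32851 windows). Named were the 10 largest gains and losses with a gene, the 5 widest, the 5 strongest, up to 2 peaks per gene list by FDR, and 3 peaks on each side of the width limit. The members, lists and rule were chosen with earlier results of these data known. Scripts were tested on simulated data. Tools were scipy 1.17.1, pandas 2.3.3, numpy 2.4.6 and matplotlib 3.10.9 under Python 3.11.15.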

Additional observations from a re-analysis of the deposited data

How the results depend on the processing

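The excess of losses depended on how signal was handled. With the running median along signal subtracted, 61 wide peaks were gained and 32 lost (gained share 65.6%, median log2 fold 0.0017). An FDR of 0.01 gave 20 gained and 45 lost, and an FDR of 0.1 gave 199 lost and a gained share of 17.4%. Requiring an absolute log2 fold of 0.5 left 3 gained and 2 lost (60%). An assumed coefficient of variation of 0.05 between libraries of a genotype left 9 gained and 6 lost (60%), and one of 0.1 left 0 and 0, beside 439 wide peaks with a deposited unadjusted p under 0.05 by edgeR. The 15 that passed at 0.05 were Sfi1, Gm19345, Nfkbie, Erdr1x, Dock10, Lcp1, Ncf1, Orai2 and 1700041C23Rik (gained), and G530011O06Rik, Hmox1, Tmem254, Egr1, Tpbg and Tcf7l1 (lost). A lower width limit gave 98 gained and 257 lost among 4128 peaks, and one of 2000 bp gave 5 and 19 among 322. A minimum absolute fold of 0.2, the median of all peaks subtracted, removal of peaks under 1 log2 CPM, the sex chromosomes left out and the standard error implied by F (chosen after seeing the data) kept counts within 1.5 times. Among 32 called named peaks, 5 no longer passed with the trend subtracted, 19 with a coefficient of variation of 0.05 and 32 with 0.1. Their directions could not turn under these settings, which left the folds unchanged or shifted them by less than their size. The cause was not tested.

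No paired analysis was possible because the deposited tables hold no values per library, and leaving out a library was not run for the same reason. Depth per library is unknown.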
